A study of Mus musculus with 24 samples.

Results

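The 6 genes Sst, Ppy, Pyy, Ghrl, Hhex and Rbp4, which mark the rarer endocrine cells of the pancreatic islet, were followed across mouse islet arrays. Sst, Hhex and Rbp4 stand for delta cells, Ppy and Pyy for PP cells, and Ghrl for epsilon cells. They were taken by gene name from the probe annotation, and all 6 were among the 22965 genes tested. The 24 arrays each held islet RNA of 1 male mouse, with 4 mice in each of 6 groups: BLKS (C57BLKs/J) mice on a high-fat diet with pioglitazone (HFD+Pio), on the high-fat diet alone (HFD) and on chow, and BL6 (C57BL6/J) mice on HFD+Pio, HFD and chow. Both strains are inbred, and the labels name no engineered allele. The mice started at 8 weeks of age, chow gave 18% and HFD 42% of kcal from fat, and pioglitazone was given at 140 mg per kg of diet. The labels of the samples state 12 weeks of feeding and the design text of the series 16 weeks.

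The islet hormones act on each other inside the islet. Delta cells release somatostatin (Sst), which acts on inhibitory G-protein-coupled receptors of beta and alpha cells and restrains insulin and glucagon release. The homeobox factor Hhex is required to maintain delta cells in the mouse, and Rbp4, the plasma carrier of retinol, is among the most delta-enriched transcripts of mouse islets. Pancreatic polypeptide (Ppy) and peptide YY (Pyy) belong to one peptide family, have neighbouring genes and signal through Npy-family receptors. Ghrelin (Ghrl) is an acylated peptide made by scarce epsilon cells of the islet, mostly around birth, and its receptor Ghsr sits on delta cells. Pioglitazone activates PPAR-gamma, a nuclear receptor of lipid metabolism.

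Each gene had 1 probe, of 60 bases, and only Sst had its probe printed repeatedly, on 10 spots. The probes lay in the mm9 build at chr16:23889776-23889835 (Sst, minus strand), chr19:37514969-37515028 (Hhex, plus strand), chr19:38191120-38191179 (Rbp4, minus strand), chr11:101961581-101961877 (Ppy, minus strand), chr11:101968311-101968370 (Pyy, minus strand) and chr6:113666114-113666173 (Ghrl, minus strand). The Ppy probe covered 297 genomic bases with 60 bases of sequence, so it crossed a splice junction. The Ppy and Pyy probes were 6433 bases apart. Because these neighbours moved together on the arrays, their probe sequences are given. The longest runs of letters that both share have 6 bases, and 1 of them is in capitals. Others of that length, such as gtatgg and aagaga, are not marked.
Ppy probe: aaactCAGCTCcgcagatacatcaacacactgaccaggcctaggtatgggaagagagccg
Pyy probe: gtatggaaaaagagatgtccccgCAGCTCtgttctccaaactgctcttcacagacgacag

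The promoter windows of both genes, 250 bases before to 50 bases after the RefSeq start in GRCm38.p6, are shown for the same reason, with their longest shared run, 8 bases, in capitals. They lie on the minus strand at chr11:102101270-102101569 (Ppy) and chr11:102107783-102108082 (Pyy, the first of 2 windows).
Ppy promoter: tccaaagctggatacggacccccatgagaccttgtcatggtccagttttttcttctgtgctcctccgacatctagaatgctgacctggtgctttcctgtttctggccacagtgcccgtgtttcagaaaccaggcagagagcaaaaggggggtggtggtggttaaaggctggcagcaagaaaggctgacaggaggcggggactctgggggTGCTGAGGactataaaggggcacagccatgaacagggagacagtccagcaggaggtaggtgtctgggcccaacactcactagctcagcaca
Pyy promoter: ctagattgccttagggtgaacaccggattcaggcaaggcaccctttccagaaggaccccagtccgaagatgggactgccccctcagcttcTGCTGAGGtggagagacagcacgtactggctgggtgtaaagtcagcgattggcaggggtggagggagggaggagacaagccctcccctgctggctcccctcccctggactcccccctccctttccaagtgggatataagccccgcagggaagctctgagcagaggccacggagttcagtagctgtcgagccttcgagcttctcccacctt
In addition, 3 motifs were searched on both strands in the 11 RefSeq windows of the 6 genes. The direct repeat bound by PPAR and its partner RXR, AGGTCANAGGTCA, was in 0 of the 11 windows and in 0.0396% of all 32851 windows of that length. The TATA box TATAAA was in 2 windows, of Ppy and Rbp4, and in 13.6% of all windows. The cyclic AMP response element TGACGTCA was in 1 window, that of Sst, and in 1.79% of all windows.

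Levels are log2 processed signals relative to the 75th percentile of the array, which ranged from 218 to 403 signal units over the 24 arrays. Probes differ in their response, so levels are compared between groups and not between genes. All 6 probes were well above background on 24 of 24 arrays, and no spot was saturated. The highest of the 6, Ppy, reached 33.3% of the saturation value. The hormones of the main islet cell types were high on every array: Ins1 lay between 9.45 and 10.46, Ins2 between 8.92 and 9.76 and Gcg between 8.96 and 9.78. Exocrine and immune RNA varied widely: the mean log2 level of 12 acinar markers ran between -3.01 and 7.21 over the arrays, and that of 10 lymphocyte markers was above 0 on 7 arrays, of all 6 groups, and at -0.97 or lower on the other 17. In whole islets, fewer cells of a type and less RNA per cell cannot be told apart.

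**Figure D1:**
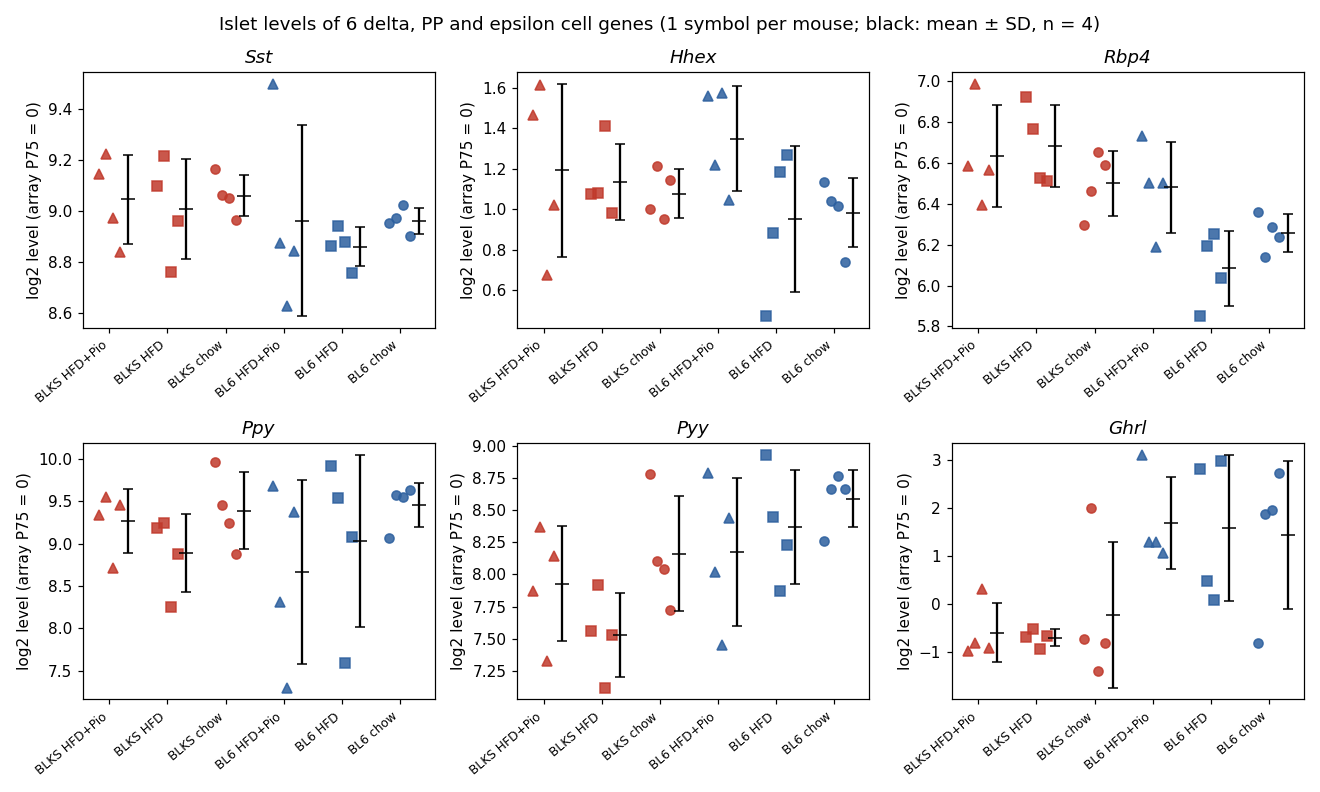
Log2 level of each gene, with the array's 75th percentile set to 0 (vertical axis), by group (horizontal axis). Each symbol is 1 mouse, red for BLKS and blue for BL6, and the black bar is the mean ± SD of 4 mice. Sst spans 8.63 to 9.50 over all arrays, while Ghrl spans -1.38 to 3.11 and is mostly low in BLKS.

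The 6 genes differed in how much they varied among mice of 1 group. The pooled within-group SD of the log2 level was 0.19 for Sst and 0.19 for Rbp4, and 0.28 for Hhex. It was 0.42 for Pyy, 0.69 for Ppy and 1.18 for Ghrl. From the lowest to the highest array, Sst differed 1.83-fold and Ghrl 22.6-fold. When the 6 group means of a gene were put in order, the ranges of all 5 neighbouring pairs of groups overlapped, for each of the 6 genes.

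Sst, the delta-cell hormone, did not pass the test in any comparison when arrays were scaled to their 75th percentile. Its log2 levels were 9.15, 9.23, 8.98 and 8.84 in BLKS HFD+Pio islets, 9.10, 9.22, 8.76 and 8.96 in BLKS HFD islets, and 9.16, 9.06, 9.05 and 8.96 in BLKS chow islets. They were 9.50, 8.88, 8.63 and 8.85 in BL6 HFD+Pio islets, 8.87, 8.94, 8.88 and 8.76 in BL6 HFD islets, and 8.95, 8.98, 9.02 and 8.90 in BL6 chow islets. Both the highest and the lowest value belonged to the BL6 HFD+Pio group, and on each diet the ranges of the strains overlapped. Averaged over diets, the log2 difference between BLKS and BL6 was 0.11 ± 0.08 (SE), with a 95% confidence interval of -0.05 to 0.27 and an adjusted p of 0.230 in the limma fit. The 6 within-strain diet differences of Sst had intervals that lay between -0.39 and 0.39. The call between strains depended on the scaling. The 12 pan-endocrine genes, to which arrays were also scaled, had a lower mean level in BLKS (median 5.91) than in BL6 islets (median 6.11). They are not a strain-neutral reference. Averaged over diets, Rfx6 (-1.59), Isl1 (-0.86) and Nkx2-2 (-0.77) among them were called lower in BLKS. Neurod1 (0.62), Pax6 (0.58) and Insm1 (0.41) were called higher. Averaged over diets, Sst was higher in BLKS by 0.30 with arrays scaled to 12 pan-endocrine genes, by 0.16 with quantile normalization and by 0.15 with normexp and quantile normalization, with adjusted p-values of 0.000141, 0.0138 and 0.00356. On HFD it was higher by 0.41 with the pan-endocrine scaling and by 0.19 with normexp and quantile normalization, with adjusted p-values of 0.00213 and 0.0375, against 0.15 and an adjusted p of 0.391 with the 75th percentile. Without BL6 HFD+Pio mouse 1, the averaged difference was 0.17 with an adjusted p of 0.0143.

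Hhex, the delta-cell transcription factor, did not pass the test in any comparison. Its log2 levels were 1.46, 1.61, 0.67 and 1.02 in BLKS HFD+Pio islets, 1.07, 1.08, 1.41 and 0.98 in BLKS HFD islets, and 1.00, 1.21, 0.95 and 1.14 in BLKS chow islets. They were 1.56, 1.22, 1.57 and 1.04 in BL6 HFD+Pio islets, 0.47, 0.88, 1.18 and 1.27 in BL6 HFD islets, and 1.13, 1.04, 1.02 and 0.74 in BL6 chow islets. The strains overlapped on every diet. The log2 difference between strains averaged over diets was 0.04 ± 0.11 (SE), with an interval of -0.19 to 0.27. Its largest diet difference was in BL6 islets, where HFD+Pio minus HFD was 0.40 ± 0.19 (SE) with an unadjusted p of 0.0502 and an adjusted p of 0.483.

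Rbp4, the retinol carrier, was higher in BLKS islets. Its log2 levels were 6.59, 6.99, 6.39 and 6.57 in BLKS HFD+Pio islets, 6.92, 6.77, 6.53 and 6.51 in BLKS HFD islets, and 6.30, 6.46, 6.65 and 6.59 in BLKS chow islets. They were 6.73, 6.50, 6.19 and 6.50 in BL6 HFD+Pio islets, 5.85, 6.19, 6.25 and 6.04 in BL6 HFD islets, and 6.36, 6.14, 6.28 and 6.24 in BL6 chow islets. On HFD every BLKS value was above every BL6 value, and on HFD+Pio and on chow the strains overlapped. Averaged over diets the log2 difference was 0.33 ± 0.08 (SE), or 1.26-fold, with an adjusted p of 0.000887. On HFD it was 0.60 ± 0.13 (SE), or 1.51-fold, with an adjusted p of 0.00101. On HFD+Pio it was 0.15 with an adjusted p of 0.369, and on chow 0.24 with an adjusted p of 0.161. With arrays scaled to 12 pan-endocrine genes, it was 0.52 averaged over diets.

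Ppy, the hormone of PP cells, had pooled within-group SDs of 0.43 in BLKS and 0.87 in BL6 islets, a difference that was not tested. By group, Ppy had a larger SD in BL6 on HFD+Pio (1.08 against 0.38) and HFD (1.02 against 0.46). On chow, Ppy had a smaller SD in BL6 (0.26 against 0.45). Its log2 levels were 9.34, 9.55, 8.71 and 9.45 in BLKS HFD+Pio islets, 9.19, 9.24, 8.25 and 8.88 in BLKS HFD islets, and 9.96, 9.46, 9.24 and 8.88 in BLKS chow islets. They were 9.68, 8.31, 7.30 and 9.38 in BL6 HFD+Pio islets, 9.91, 9.54, 7.59 and 9.08 in BL6 HFD islets, and 9.06, 9.57, 9.55 and 9.63 in BL6 chow islets. The lowest values were single mice of the BL6 HFD+Pio and BL6 HFD groups, and all groups overlapped. The log2 difference between strains averaged over diets was 0.13 ± 0.27 (SE), with an interval of -0.43 to 0.69. BL6 HFD+Pio islets had the lowest mean, 8.66 ± 1.08 (SD, n = 4), against 9.45 ± 0.26 (SD, n = 4) in BL6 chow islets, a log2 difference of -0.79 ± 0.46 (SE) with an adjusted p of 0.436.

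Pyy was lower in BLKS islets. Its log2 levels were 7.87, 8.37, 7.33 and 8.14 in BLKS HFD+Pio islets, 7.56, 7.91, 7.12 and 7.53 in BLKS HFD islets, and 8.78, 8.11, 8.04 and 7.72 in BLKS chow islets. They were 8.79, 8.02, 7.45 and 8.44 in BL6 HFD+Pio islets, 8.93, 8.44, 7.87 and 8.23 in BL6 HFD islets, and 8.26, 8.66, 8.76 and 8.66 in BL6 chow islets. The strains overlapped on each diet, on HFD only between the highest BLKS and the lowest BL6 mouse. Averaged over diets the log2 difference was -0.50 ± 0.17 (SE), or 1.42-fold lower, with an adjusted p of 0.0119. On HFD it was -0.84 ± 0.29 (SE), or 1.79-fold lower, with an adjusted p of 0.0201. It was -0.24 on HFD+Pio and -0.43 on chow, with adjusted p-values of 0.509 and 0.255. On HFD the call rested on single mice: it was -0.65 with an adjusted p of 0.0828 without BL6 mouse 1, and -0.70 with an adjusted p of 0.0689 without BLKS mouse 3. With arrays scaled to 12 pan-endocrine genes, the difference averaged over diets was -0.31 with an adjusted p of 0.0592 and that on HFD -0.57 with an adjusted p of 0.0547, so both calls were lost.

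Ghrl, the hormone of epsilon cells, showed the largest strain difference of the 6 genes. Its log2 levels were -0.97, -0.81, 0.32 and -0.92 in BLKS HFD+Pio islets, -0.68, -0.52, -0.94 and -0.66 in BLKS HFD islets, and -0.72, 2.00, -1.38 and -0.81 in BLKS chow islets. They were 3.11, 1.30, 1.29 and 1.06 in BL6 HFD+Pio islets, 2.81, 0.49, 0.08 and 2.97 in BL6 HFD islets, and -0.80, 1.87, 1.97 and 2.72 in BL6 chow islets. The level was above 0 in 2 of 12 BLKS and 11 of 12 BL6 mice. On HFD and on HFD+Pio the strains did not overlap, and on chow BLKS mouse 2, at 2.00, lay among the BL6 mice and BL6 mouse 1, at -0.80, among the BLKS mice.

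Averaged over diets, Ghrl had a mean log2 level of -0.51 ± 0.88 (SD, n = 12) in BLKS and 1.57 ± 1.24 (SD, n = 12) in BL6 islets. The difference was -2.08 ± 0.46 (SE), or 4.22-fold lower, with an adjusted p of 0.000465. It was -2.28 ± 0.79 (SE) on HFD+Pio with an adjusted p of 0.0228, -2.28 ± 0.79 (SE) on HFD with an adjusted p of 0.0209, and -1.67 ± 0.79 (SE) on chow with an adjusted p of 0.0990. Single mice decided the calls within a diet. On chow the difference was -2.41 with an adjusted p of 0.0155 without BLKS mouse 2, and -2.41 with an adjusted p of 0.0152 without BL6 mouse 1. On HFD it was -1.88 without BL6 mouse 1 and -1.82 without BL6 mouse 4, with adjusted p-values of 0.0756 and 0.0782. On HFD+Pio it was -2.16 without BLKS mouse 1, -2.18 without BLKS mouse 4 and -1.81 without BL6 mouse 1, with adjusted p-values of 0.0518, 0.0528 and 0.0876.

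**Figure D2:**
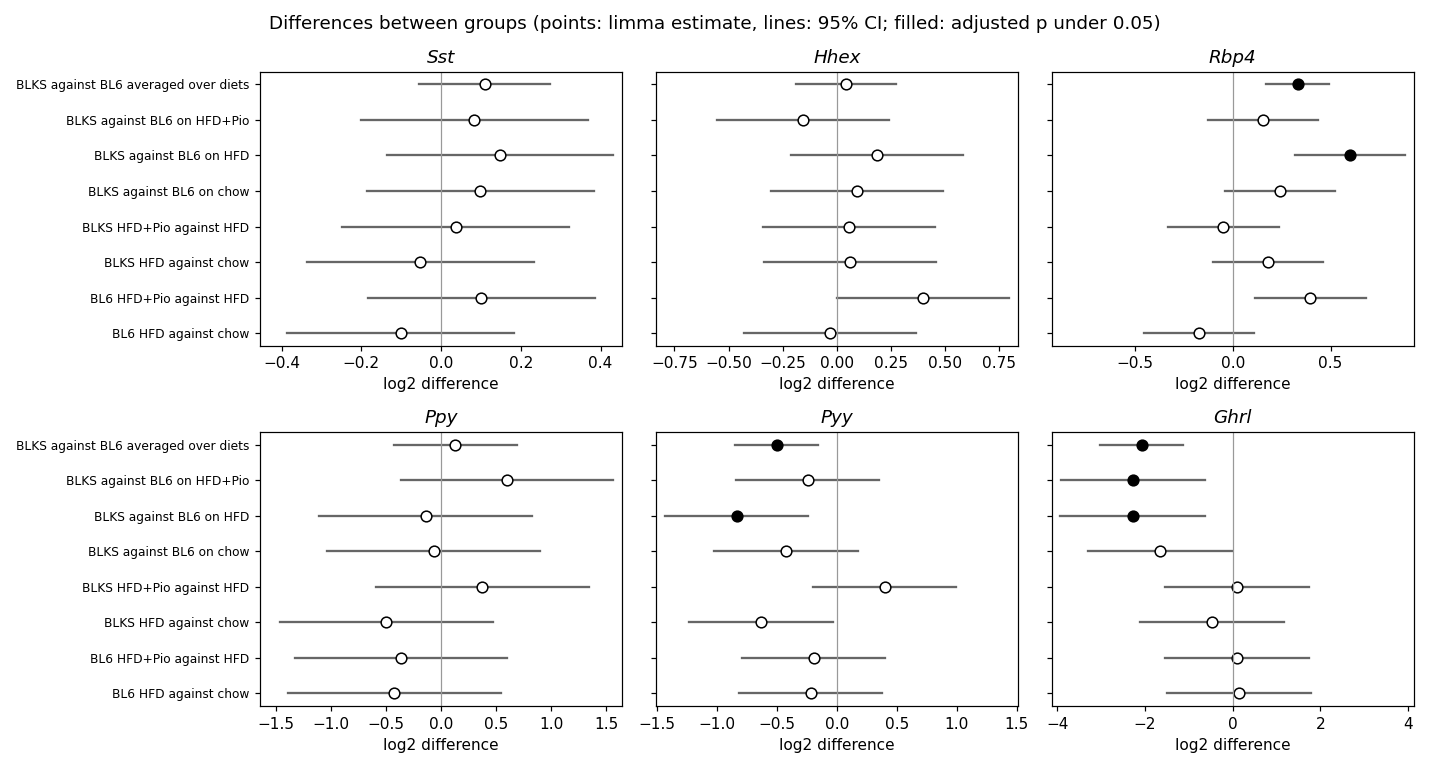
Log2 difference (horizontal axis) of each gene in 8 comparisons (vertical axis, first group minus second), as the limma estimate with its 95% confidence interval. Filled points have an adjusted p under 0.05. They are Rbp4, Pyy and Ghrl averaged over diets and on HFD, and Ghrl on HFD+Pio, and none is a diet comparison.

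Counted together, 3 of the 6 genes differed between the strains averaged over diets, 1 higher and 2 lower in BLKS, where 64.7% of all genes were called. On HFD+Pio it was 1 of 6, against 45.8% of all genes, on HFD 3 of 6, against 49.9%, and on chow 0 of 6, against 41.6%. The members' shares were near or below those of all genes. The median log2 difference averaged over diets was 0.08 for the 6 genes and -0.05 for all genes. On chow, 1 of the 6 had an unadjusted p under 0.05, which was Ghrl. Without the 7 arrays whose lymphocyte score was above 0, the counts were 3 averaged over diets, 1 on HFD+Pio, 1 on HFD and 0 on chow. The averaged comparison uses the same arrays as the 3 within single diets.

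None of the 6 genes passed the test in a diet comparison. Over the 6 within-strain comparisons, 0 of 36 differences passed the test in the limma fit, and 2 had an unadjusted p under 0.05. These were Rbp4 in BL6 islets, where HFD+Pio minus HFD was 0.40 ± 0.13 (SE) with an unadjusted p of 0.00805 and an adjusted p of 0.294, and Pyy in BLKS islets, where HFD minus chow was -0.63 ± 0.29 (SE) with an unadjusted p of 0.0402 and an adjusted p of 0.508. Few genes of the whole array were called either. The share was 0.00435% for HFD+Pio against HFD, 0.0784% for HFD against chow and 0.0348% for HFD+Pio against chow in BLKS islets, and 0.192%, 0.0435% and 0.279% for the same comparisons in BL6 islets. The comparisons within a strain share their arrays pairwise.

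The intervals show what size of diet difference the data leave possible. For Rbp4 the within-strain diet intervals lay between -0.45 and 0.68 and for Hhex between -0.43 and 0.79. They lay between -1.23 and 1.00 for Pyy, between -1.76 and 1.34 for Ppy and between -2.12 and 1.90 for Ghrl. For the last 2 genes, differences well over 2-fold were within these limits. The diet effects were also compared between the strains: 0 of 12 such differences passed, and 1 had an unadjusted p under 0.05. That was Rbp4, for which the effect of pioglitazone was 0.44 lower in BLKS than in BL6 islets, a difference of -0.44 ± 0.19 (SE) with an unadjusted p of 0.0305 and an adjusted p of 0.608. Of all genes, 0% were called for the difference in the HFD effect and 0.00871% for that in the pioglitazone effect.

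Array position and strain were tied. No slide held both strains on the same diet: BLKS HFD and BLKS HFD+Pio shared 1 slide, BL6 HFD and BL6 chow another, and BLKS chow and BL6 HFD+Pio were spread over the other two, one of which held 1 array of each. The HFD+Pio against HFD comparison in BLKS and the HFD against chow comparison in BL6 were therefore within 1 slide. Within the slide that held 3 arrays of each, Ghrl in BLKS chow minus BL6 HFD+Pio was -1.74, Pyy 0.12 and Rbp4 -0.02. Within the slide that held 1 array of each, these values were -2.44, -0.39 and 0.15. In both cases the diet differed as well as the strain.

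Ppy and Pyy moved together from mouse to mouse. Over 24 arrays the Pearson correlation of their deviations from the group means was 0.90, and that of their levels was 0.72. The correlation of deviations was 0.94 over the 12 BLKS arrays and 0.95 over the 12 BL6 arrays. Both genes were read on the same arrays, with the same scaling. They also followed Ins2, with correlations of deviations of 0.75 for Ppy and 0.71 for Pyy. Their deviations ran against the lymphocyte score, at -0.48 and -0.51, and the macrophage score, at -0.54 and -0.56. The part of these cells in the values was not tested. In BL6 HFD+Pio, the 2 mice with the lowest Ppy were also the 2 with a lymphocyte score above 0. In BLKS HFD, mouse 3 had both the lowest Ppy, 8.25, and the only score above 0, 1.98. In BL6 HFD, BL6 chow, BLKS HFD+Pio and BLKS chow, the mouse with the lowest Ppy had a score below 0. In BL6 HFD this was mouse 3, with Ppy at 7.59 and a score of -2.58, while mouse 4 had 9.08 and 2.10. Without the 7 arrays of high lymphocyte score, Ppy in BL6 HFD+Pio minus chow was 0.11, against -0.79 with all arrays.

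The log2 ratio of Pyy to Ppy on the same array separated the strains. In BLKS islets, Pyy minus Ppy had a lowest value of -1.63, a median of -1.32 and a highest value of -1.13 over 12 arrays. In BL6 islets, the lowest was -1.09, the median -0.87 and the highest 0.28. Thus 12 of 12 BL6 arrays lay above the highest BLKS array, though the nearest values, -1.09 and -1.13, were close. The ratio was -1.33 ± 0.12 in BLKS HFD+Pio, -1.36 ± 0.21 in BLKS HFD and -1.22 ± 0.09 in BLKS chow islets, against -0.49 ± 0.52 in BL6 HFD+Pio, -0.66 ± 0.64 in BL6 HFD and -0.87 ± 0.08 in BL6 chow islets (SD, n = 4 each). On the slide with 3 arrays of each group, it ran between -1.35 and -1.16 in BLKS chow and between -0.89 and 0.15 in BL6 HFD+Pio islets, and on the slide with 1 of each it was -1.20 in BLKS chow and -0.94 in BL6 HFD+Pio islets. The ratio is given without a test, since it was looked at after the levels were known. How many other gene pairs separate the strains was not counted. Of all single genes, 64.7% were called between the strains averaged over diets.

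**Figure D3:**
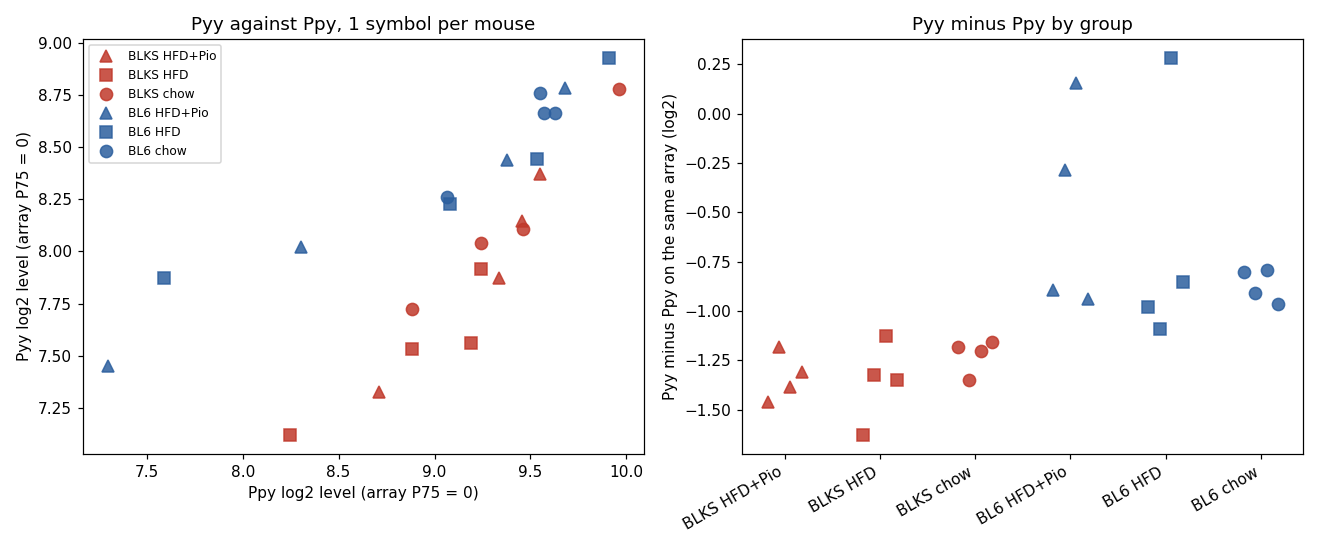
Left, log2 level of Pyy (vertical axis) against that of Ppy (horizontal axis), 1 symbol per mouse, red for BLKS and blue for BL6, with symbol shapes for diet. Right, Pyy minus Ppy on the same array (log2) by group. The 12 BLKS mice lie between -1.63 and -1.13, all below the 12 BL6 mice.

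Other genes whose levels ran closest to each member were found over all genes tested, and their likeness is a description over 24 arrays. March9, a membrane ubiquitin ligase, was closest to Ppy in levels (r = 0.96) and in deviations (r = 0.96), and was closest to Pyy in deviations (r = 0.93). Tspan8, a tetraspanin, followed Pyy in levels (r = 0.93) and Ppy in deviations (r = 0.92). Crxos1 (r = 0.90) and Tmem8c (r = 0.84) came next for the levels of Ppy, and Folr1, a folate receptor, for its deviations (r = 0.91). Kif1b, a kinesin (r = 0.87), and Grb14, an adaptor of the insulin receptor (r = 0.86), came next for the levels of Pyy, and Crxos1 (r = 0.91) and Tspan8 (r = 0.91) for its deviations.

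Sst followed the other main hormones within groups, with correlations of deviations of 0.80 with Ins1, 0.82 with Ins2 and 0.80 with Gcg. These genes were read on the same arrays, with the same scaling. In BL6 HFD+Pio, Sst had processed signals of 157852 in mouse 1 and 147238 in mouse 3, at levels of 9.50 and 8.63. The part of the scaling in these correlations was not tested. The genes closest to Sst in deviations were Maob, monoamine oxidase B (r = 0.89), Pld3 (r = 0.87) and mitochondrial CYTB (r = 0.87), and in levels Slc22a28 (r = 0.80), Maml3 (r = 0.79) and Arf5 (r = 0.76). Rbp4 was closest in deviations to the adhesion molecule Alcam (r = 0.86), the ETS factor Etv1 (r = 0.85) and Rtkn (r = 0.83), and in levels to Klhl13 (r = 0.85), Rtkn (r = 0.84) and Nudt10 (r = 0.84). The correlation of Rbp4 with Sst was 0.59 in deviations, and that of Hhex with Sst 0.16. In deviations, Rbp4 correlated at 0.82 with the mean level of 7 alpha-cell markers. With that of the delta-cell list, which includes Rbp4, it correlated at 0.78.

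The genes closest to Hhex were Slc25a33 (r = 0.70), Crym (r = 0.69) and Htr7 (r = 0.69) in deviations, and Corin (r = 0.69), Celf2 (r = 0.68) and Exosc8 (r = 0.64) in levels. Those closest to Ghrl were Zc3h6 (r = 0.66), Nudt2 (r = 0.65) and Igkv4-72 (r = 0.64) in deviations, and Nudt2 (r = 0.84), Igkv4-72 (r = 0.83) and Pramef12 (r = 0.80) in levels. Pramef12, Htr7 and Corin were well above background on 8, 6 and 17 of the 24 arrays, and the other genes named here on all. The probes of these 28 genes shared runs of only 5 to 9 bases with the probe of their member.

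The delta-cell list, which includes Sst, Hhex and Rbp4, had more genes called higher than lower in BLKS. Of its 10 genes, 9 were tested and 5 were called higher in BLKS averaged over diets, against 30.1% of all genes, and 0 lower, against 34.6%. The median log2 difference of the list was 0.33, which is the value of Rbp4 itself, against -0.05 over all genes. Sst and Hhex were not called. The called genes besides Rbp4 were Spock3, a proteoglycan, at 1.55 ± 0.22 (SE), the fatty acid receptor Ffar4 (O3far1 in the files) at 0.58 ± 0.09 (SE), the ghrelin receptor Ghsr at 0.58 ± 0.17 (SE) and the calcium-sensing receptor Casr at 0.51 ± 0.09 (SE), with adjusted p-values of 3.16e-06, 5.06e-06, 0.00529 and 3.79e-05. Casr lay between 2.38 and 3.01 in BLKS and between 1.64 and 2.52 in BL6 islets. Spock3 was well above background on 11 of 12 BLKS and 2 of 12 BL6 arrays, so its fold is poorly fixed. It passed the detection filter of at least 4 arrays only through the BLKS arrays. Its place among the 5 genes called higher therefore adds no support to that count. The secreted Wnt antagonist Frzb, at -0.05, was not called.

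The receptors, G proteins and channels through which somatostatin acts, listed with the related peptide Cort, went both ways. Of 12 tested genes, 5 were higher in BLKS, against 30.1% of all genes, and 4 lower, against 34.6%, and the median was 0.07. The inhibitory G-protein subunits Gnai3, at 1.18 ± 0.06 (SE), and Gnai2, at 0.42 ± 0.06 (SE), were higher, with adjusted p-values of 1.01e-12 and 4.62e-06. The receptors Sstr1, at -1.45 ± 0.20 (SE), and Sstr3, at -0.61 ± 0.09 (SE), were lower, with adjusted p-values of 1.63e-06 and 2.54e-06. The receptor Sstr2 was higher at 0.60 ± 0.20 (SE) with an adjusted p of 0.0133. It was well above background on 11 of 12 BLKS and 6 of 12 BL6 arrays. Sstr4, at -0.09, and Sstr5, at 0.01, were not called. Gnai3 lay between 4.34 and 4.97 in BLKS and between 3.12 and 3.49 in BL6 islets, without overlap. Sstr1 lay between -4.43 and -2.54 in BLKS and between -2.74 and -1.86 in BL6 islets, where the ranges overlapped.

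Among 10 genes for signals that reach delta cells, 5 were lower in BLKS, against 34.6% of all genes, and 0 higher, against 30.1%, and the median was -0.32. The incretin receptor Glp1r was lower at -1.36 ± 0.09 (SE), the corticotropin-releasing hormone receptor Crhr1 at -0.70 ± 0.09 (SE) and the leptin receptor Lepr at -0.76 ± 0.14 (SE), with adjusted p-values of 2.79e-11, 8.20e-07 and 5.40e-05. The related receptor Crhr2 was not called, at 0.09 ± 0.08 (SE) with an adjusted p of 0.330. The beta-cell peptide Ucn3, which stimulates delta cells in the mouse, was lower at -0.36 ± 0.07 (SE) with an adjusted p of 0.000222. Glp1r lay between -1.55 and -0.76 in BLKS and between -0.27 and 0.63 in BL6 islets.

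In the PP-cell list, 4 of 6 genes were tested. Besides Pyy, the ETS factor Etv1 was lower at -0.88 ± 0.09 (SE) with an adjusted p of 3.09e-08, and the homeobox factor Meis2 was higher at 0.18 ± 0.06 (SE) with an adjusted p of 0.0184. Etv1 lay between 2.75 and 3.41 in BLKS and between 3.42 and 4.21 in BL6 islets. Of the 7 genes in the list of PP-fold receptors, the peptidase Dpp4 and the related peptide Npy, 4 were tested and 3 were lower, against 34.6% of all genes. These were the receptor Npy1r at -1.99 ± 0.29 (SE), the pancreatic polypeptide receptor Npy4r (Ppyr1 in the files) at -0.60 ± 0.14 (SE) and Dpp4, which cleaves these peptides, at -1.59 ± 0.06 (SE), with adjusted p-values of 4.02e-06, 0.000749 and 1.66e-15. Npy1r was well above background on 5 of 12 BLKS and 11 of 12 BL6 arrays.

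In the epsilon-cell list, 4 of 6 genes were tested, of which 2 were higher in BLKS, against 30.1% of all genes, and 1, Ghrl, lower, against 34.6%. Acsl1, an acyl-CoA synthetase, was higher in BLKS at 0.26 ± 0.08 (SE) with an adjusted p of 0.00739. Asgr1, at 0.72 ± 0.29 (SE) with an adjusted p of 0.0387, was well above background on only 5 of 12 BLKS and 1 of 12 BL6 arrays. It passed the detection filter of at least 4 arrays through the BLKS arrays, so its call adds no support to the count of 2. Anxa13 was not called at 0.46 ± 0.35 (SE). Of 4 genes of the ghrelin system, 2 were tested. The receptor Ghsr was higher, as given above, and Pcsk1, the convertase that processes proghrelin, was lower at -0.22 ± 0.09 (SE) with an adjusted p of 0.0423. The probe of Mboat4, which acylates ghrelin, did not pass the detection filter.

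Genes of retinol transport, in which Rbp4 acts, also went both ways between strains. Of 16 tested, 3 were higher in BLKS, against 30.1% of all genes, and 5 lower, against 34.6%, with a median of -0.09. Ttr, the partner of Rbp4 in plasma and also an alpha-cell transcript, was lower at -0.92 ± 0.10 (SE), the retinoid receptor Rarg at -0.71 ± 0.07 (SE) and the intracellular retinol-binding protein Rbp7 at -2.51 ± 0.11 (SE), while the retinoic acid-binding protein Crabp2 was higher at 0.71 ± 0.06 (SE). Their adjusted p-values were 6.16e-08, 7.50e-09, 4.33e-14 and 1.11e-09. Rbp7 was the 1 gene of all these lists that was called in a diet comparison. It lay between 1.39 and 1.58 in BLKS HFD+Pio and between -0.095 and 0.27 in BLKS HFD islets, and between 3.58 and 4.50 in BL6 HFD+Pio and between 2.31 and 3.01 in BL6 HFD islets. HFD+Pio minus HFD was 1.48 ± 0.19 (SE) in BLKS and 1.40 ± 0.19 (SE) in BL6 islets, with adjusted p-values of 0.00362 and 0.00147, where Rbp4 stood at -0.05 and 0.40.

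Of 16 tested transcription factors of the endocrine lineage, 6 were higher and 8 lower in BLKS, where 30.1% of all genes were higher and 34.6% lower. The 4 of smallest p were Rfx6 at -1.59 ± 0.08 (SE), Foxa2 at -1.42 ± 0.08 (SE), Nkx2-2 at -0.77 ± 0.07 (SE) and Mnx1, with adjusted p-values of 2.88e-13, 5.03e-12, 4.73e-09 and 1.95e-09. Mnx1 lay between -2.76 and -2.06 in BLKS and between -1.95 and -0.88 in BL6 islets. Rfx6, needed for islet cells other than PP cells to form in the mouse, lay between 1.40 and 2.07 in BLKS and between 3.01 and 3.69 in BL6 islets. Foxa2 lay between 3.42 and 4.08 in BLKS and between 4.86 and 5.65 in BL6 islets. Among markers of other cells, averaged over diets, 6 of 8 macrophage markers were lower in BLKS, against 34.6% of all genes. Their mean level was similar on chow, at 1.45 in BLKS and 1.48 in BL6 islets. It was 1.44 and 1.92 on HFD and 1.31 and 2.16 on HFD+Pio. Of 8 ductal markers, 5 were higher, against 30.1%, and 0 of 12 acinar markers were called, against 64.7%. With an acinar or a lymphocyte score as a covariate, the same 3 members were called averaged over diets, and the part of the macrophage and ductal markers was not tested.

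**Figure D4:**
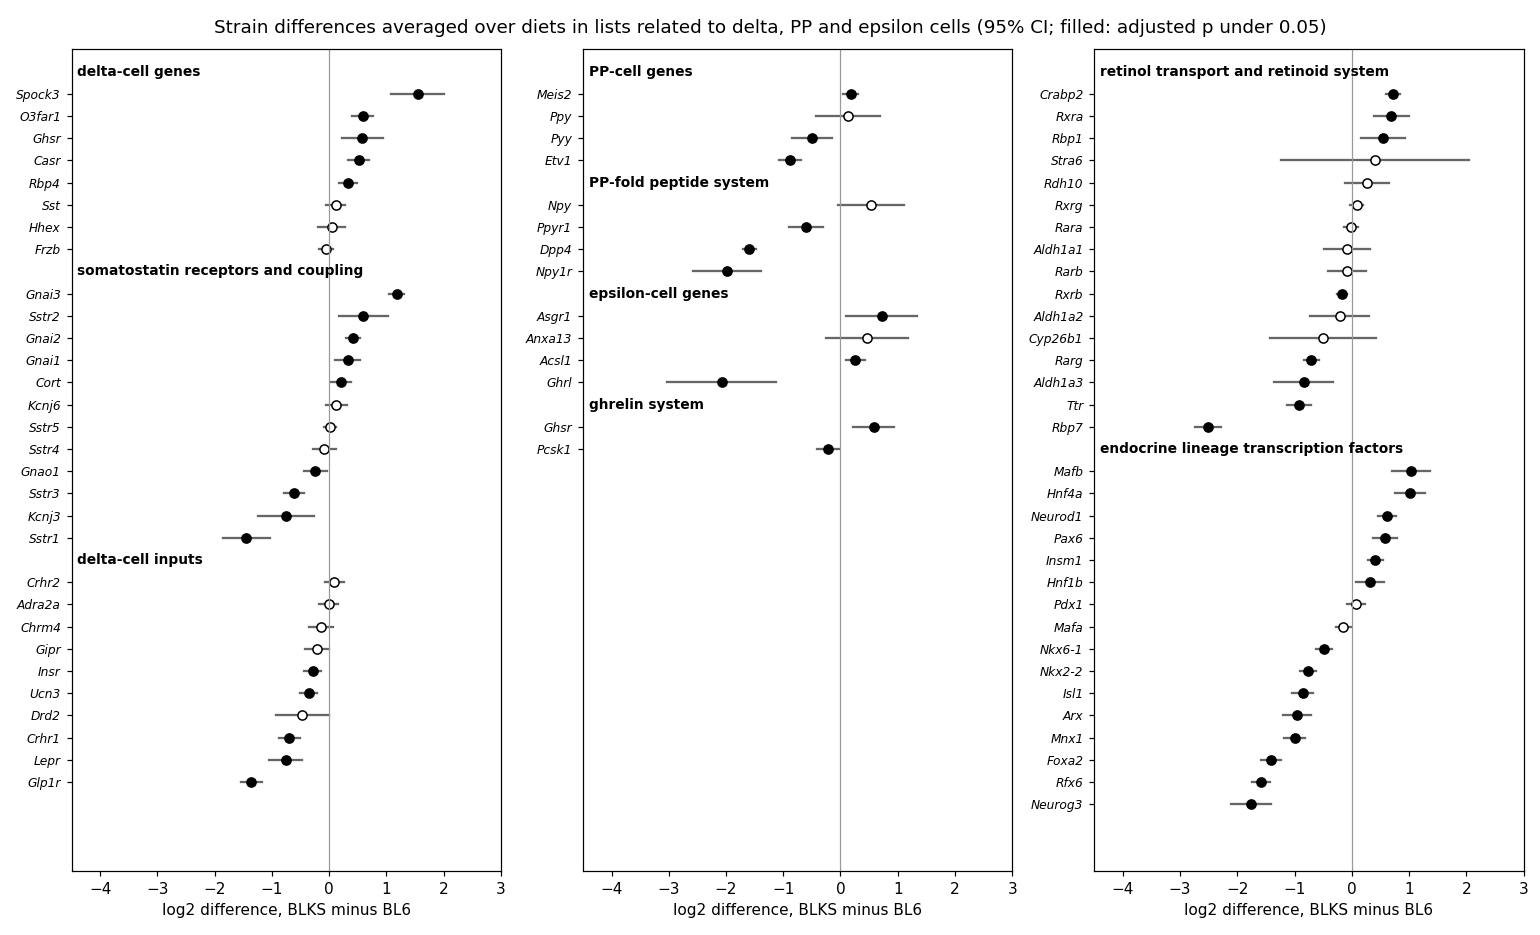
Log2 difference between BLKS and BL6 islets averaged over diets (horizontal axis), with 95% confidence intervals, for tested genes of 9 lists (vertical axis, grouped by list). Filled points have an adjusted p under 0.05. Spock3, O3far1, Ghsr, Casr and Rbp4 lie to the right in the delta-cell list, and Ghrl and Rbp7 lie furthest to the left in theirs.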

How the data were processed

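Islet RNA of 24 mice was hybridised to single-colour Agilent arrays. Per the file headers, Agilent Feature Extraction 10.7.3.1 gave each spot a background-subtracted processed intensity, which the authors deposited without normalization between arrays. Raw mean and background intensities from the same deposited files served an alternative. A linear ratio was also deposited by the authors, and its values equalled processed intensity over the array median. Columns left unmapped numbered 0.

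Of 55681 probes, 55 were lost to outlier flags. The log2 processed intensity, averaged over the spots of a probe, was set relative to the array's 75th percentile. Probes well above background on at least 4 arrays were kept (32746), and the brightest stood for its gene (22965). A model with 6 group means was fitted in limma 3.58.1 (lmFit and eBayes, R 4.3.3) with 12 contrasts. Adjusted p-values are from that fit or, where another scaling or a left-out mouse is named, from a refit of that model. They were obtained by the Benjamini-Hochberg method over all genes with a threshold of 0.05, and SEs are those of the log2 difference. The code was tested on simulated data. Tables and plots used Python 3.11.15 with numpy 2.4.6, pandas 2.3.3, scipy 1.17.1 and matplotlib 3.10.9.

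The members and the 20 marker and pathway lists (183 entries, 182 with a probe) were chosen with earlier results of these data known. The genes named were the members, for each of them 3 genes closest by Pearson correlation in levels and 3 in deviations from the group means (clone and predicted-gene names left out), up to 4 called genes of smallest p per list, and Ins1, Ins2 and Gcg. Further list genes named without a call, or beyond that number, were picked after their values were seen. Of the listed genes, 1 is not reported here. Names are those of the array design. RefSeq (GRCm38.p6) gave current symbols and promoter windows, and a mm9 genome was not used here. The number of arrays limits the precision.

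Mouse numbers did not pair the groups: the labels name separate animals. Over 60 same-numbered pairs, the correlation of deviations ran between -0.64 and 0.72.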

Additional observations from a re-analysis of the deposited data

Results flagged for a closer look

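In 3 of 36 groups of 4 mice (6 genes in 6 groups), 1 mouse stood apart from the other 3 by Dixon's test at the 95% level, and chance marks about 1 in 20 groups. In the BLKS HFD+Pio group, Ghrl was 0.32 in mouse 3, against at most -0.81 in the other 3, a gap of 0.876 of the group's range. In the BL6 HFD+Pio group, Ghrl was 3.11 in mouse 1, against at most 1.30 in the other 3, a gap of 0.880 of the range. In the BL6 chow group, Ppy was 9.06 in mouse 1, against at least 9.55 in the other 3, a gap of 0.863 of the range.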

How the results depend on the processing

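A total of 13 alternatives, 1 more chosen after seeing the data and the omission of each of 24 mice were tried. In the 8 diet and diet-by-strain comparisons, 0 of 6 genes were called under each of these settings. Averaged over diets, the number called was 3 to 4, and Ghrl and Rbp4 were called in 39 of 39 settings, the main one included, and Pyy in 38. Ghrl lay between -2.33 and -1.86 and Rbp4 between 0.26 and 0.52. Scaling to pan-endocrine genes, which shifted the median of all genes to 0.15, against -0.05, gave 2 called genes on chow (Sst and Rbp4) and 2 on HFD+Pio (Ghrl and Rbp4). Normexp with quantile normalization gave 2 on HFD+Pio (Ghrl and Sst). Without the 7 arrays of high lymphocyte score, 1 gene, Rbp4, was called on HFD. Leaving out single mice gave 0 to 1 called on HFD+Pio, 1 to 3 on HFD, 0 to 1 on chow and 3 to 4 averaged over diets. Without those 7 arrays, 4 uncalled differences turned round: in BL6 HFD+Pio against chow, Ppy became 0.11 and Pyy 0.081, and Ppy became -0.29 for BLKS against BL6 on HFD+Pio and -0.38 for the strain difference in the pioglitazone effect. Only 2 BL6 HFD+Pio arrays remained there, and the cause was not tested. Of 72 differences, 41 were smaller than their own SE, and a change of sign among these while uncalled was not counted as a reversal. Of the 72, 28 changed sign in some alternative and 32 when some single mouse was left out, none of them called. With mouse number as a replicate block, the counts were 3 averaged over diets, 1 on HFD+Pio, 3 on HFD and 0 on chow, as without it. All 6 probes were well above background on 24 of 24 arrays.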
